A study of Mus musculus with 8 samples.

Results

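The miR-15/16 family is a group of mature miRNAs that share 1 seed, bases 2 to 8, the stretch through which a miRNA pairs with its target mRNAs. It was followed in brown fat, which burns fuel to make heat, of cold-exposed and unexposed mice. Its members were taken by name: the miRNA probes called mmu-miR-15a, mmu-miR-15b, mmu-miR-16, mmu-miR-195, mmu-miR-322 and mmu-miR-497, which are 6 of the 566 mouse miRNAs on the array. Each member had 2 probes printed in 10 spots each. All 12 probes were well above background on all 8 arrays, so that every member entered the 189 miRNAs tested.

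The mice were male C57Bl6N animals aged 8 weeks. In the cold group 3 mice (mice 1, 2 and 3) spent 24 h at 8 °C, and in the other group 3 mice (mice 4, 5 and 6) were kept at room temperature, 21 °C. Total RNA of the tissue was labelled with Cy3 and hybridised to 1-colour Agilent miRNA arrays. Mice 1 and 4 had a second array each, and their 2 arrays were averaged. All arrays lay on 1 slide, with the cold samples in one row and the room temperature samples in the other, and the effect of the row on a level cannot be told apart from that of the group. In whole tissue, fewer cells of a type and less RNA per cell cannot be told apart either.

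As background, the family restrains cell division: its best known targets are mRNAs of G1 cyclins and checkpoint kinases, and that of the survival factor Bcl2. The human counterpart of the miR-15a/16-1 locus is often deleted in chronic lymphocytic leukaemia. The miR-195/miR-497 pair is known for quiescence of muscle stem cells, and miR-322, the mouse counterpart of human miR-424, for differentiation of muscle precursors.

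The mature sequences show what the probes had to tell apart. They were read from RefSeq (GRCm38.p6), in which all 6 array names matched a 5p arm by name (miR-195 as miR-195a, miR-497 as miR-497a). Capitals mark the seed, bases 2 to 8:
mmu-miR-15a: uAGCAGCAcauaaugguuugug
mmu-miR-15b: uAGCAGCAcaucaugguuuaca
mmu-miR-497: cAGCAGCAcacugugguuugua
mmu-miR-16: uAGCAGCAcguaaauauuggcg
mmu-miR-195: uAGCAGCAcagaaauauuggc
mmu-miR-322: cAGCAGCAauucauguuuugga

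The seed AGCAGCA was identical in all 6. Of the 1679 mature names in the RefSeq table, 10 (0.596%) carried it at bases 2 to 8. The array had the 6 members among these 10 and none of the other 4, which were miR-195b, miR-6342, miR-6353 and miR-6419. Behind the seed the members differed. Compared base by base without gaps, miR-16 and miR-195 were the same at 19 of 21 positions, although they come from different chromosomes, and miR-15a and miR-15b at 18 of 22. By contrast miR-195 and miR-497, which come from 1 locus, shared 12 of 21. The least alike were miR-16 and miR-497 with 11 of 22, and miR-195 and miR-322 with 11 of 21. The probe sequences were not used here, and cross-hybridisation between members was not tested.

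The family lies at 4 loci. Mir15a and Mir16-1 are 54 bases apart within the span of the long non-coding RNA gene Dleu2 on chromosome 14. Mir15b and Mir16-2 are 66 bases apart within the span of Smc4, which encodes a condensin subunit, on chromosome 3. Mir497 and Mir195a are 241 bases apart on chromosome 11, with no other gene spanning both in the RefSeq table. Mir322 lies on the X chromosome beside Mir503, 200 bases away, within the span of the long non-coding RNA gene C430049B03Rik. On GRCm38.p6 the mature strands lie at chr14:61632075-61632096 (miR-15a, minus strand), chr3:69009775-69009796 (miR-15b, plus), chr11:70234730-70234751 (miR-497, plus), chr11:70235062-70235082 (miR-195, plus) and chrX:53054306-53054327 (miR-322, minus). The pair of hairpins that yield miR-16 show why an array cannot assign it to a locus, since the mature strand (capitals) is the same in both while the rest differs. Mir16-1 lies at chr14:61631880-61631972 on the minus strand and Mir16-2 at chr3:69009902-69009996 on the plus strand (RefSeq, GRCm38.p6):
Mir16-1: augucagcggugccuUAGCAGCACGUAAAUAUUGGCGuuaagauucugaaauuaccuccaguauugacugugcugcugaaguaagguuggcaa
Mir16-2: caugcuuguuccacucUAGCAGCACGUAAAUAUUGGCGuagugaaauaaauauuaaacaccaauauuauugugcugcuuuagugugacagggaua

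The main comparison asked which miRNAs differ in brown fat after 24 h of cold, and no member of the family passed. Levels are given on the log2 scale relative to each array's 75th percentile of bright probes, and a change is cold minus room temperature with its SE from limma. With limma and Benjamini-Hochberg adjustment over all miRNAs, 0 of the 6 members were under the threshold of 0.05, against 29 of 189 (15.3%) among all miRNAs, and 0 of 6 had an unadjusted p under 0.05, against 62 of 189 (32.8%). The 6 changes ran from -0.09 to 0.29 with a median of 0.08, beside a median of -0.02 over all 189. Of the 6, 3 were positive (miR-15a, miR-15b and miR-16) and 3 negative (miR-195, miR-322 and miR-497). Over all miRNAs the 29 calls were 16 higher and 13 lower. Taking the percentile over all probes gave 11 higher and 17 lower, leaving the arrays unscaled gave 1 higher and 10 lower, and scaling to the dmr control RNAs gave 0 higher and 4 lower. The total came to 33 calls without mouse 1, 11 without mouse 2 and 14 without mouse 3. It was 24 without mouse 4, 13 without mouse 5 and 8 without mouse 6.

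At the miR-15a/16-1 locus, miR-15a stood at 1.08, 1.43 and 1.35 in the cold mice 1, 2 and 3, and at 0.98, 1.11 and 1.09 in the room temperature mice 4, 5 and 6. The groups overlapped through mouse 1, while mice 2 and 3 lay above all room temperature mice. The group means were 1.29 ± 0.18 and 1.06 ± 0.07 (SD, n = 3 mice each). This gave a change of 0.23 ± 0.14 (SE; 95% interval -0.10 to 0.55; limma adjusted p = 0.299), or 1.17-fold. With 1 mouse left out the change lay between 0.16 (without mouse 2) and 0.33 (without mouse 1). In unscaled signal the mean was lower in the cold, 1991 ± 571 units against 2286 ± 621 (SD, n = 3), and the cold arrays were dimmer as a whole.

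At the Smc4 locus, miR-15b stood at -0.39, -0.08 and -0.47 in the cold mice and at -0.59, -0.58 and -0.62 in the room temperature mice. It was the 1 member whose groups did not overlap, with all cold mice above. Such a separation with cold higher was found for 38 of the 189 miRNAs (20.1%), and in either direction for 73 (38.6%). The room temperature mice agreed closely (-0.60 ± 0.02, SD, n = 3), and the cold mice spread more widely around -0.31 ± 0.21. The change of 0.29 ± 0.14, or 1.22-fold, was the largest in the family and did not pass (SE; 95% interval -0.05 to 0.62; limma adjusted p = 0.209). It was 0.17 without mouse 2 and 0.37 without mouse 3.

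miR-16, the product of both these loci, stood at -0.18, 0.42 and 0.30 in the cold mice and at -0.22, 0.08 and 0.08 at room temperature. Mouse 1 lay within the range of the room temperature group, and mice 2 and 3 lay above it. The change was 0.20 ± 0.19 (SE; 95% interval -0.24 to 0.64; limma adjusted p = 0.485). It came to 0.08 without mouse 2, to 0.10 without mouse 4 and to 0.38 without mouse 1, where it was above the 0.32 of miR-15b. Without mouse 1, miR-15a and miR-16 had an unadjusted p under 0.05 from limma, as did 59 of 189 miRNAs (31.2%), and their adjusted p was 0.155 each. Of the 6 members miR-16 varied most among the mice of a group, with a within-group SD of 0.26 where the median miRNA had 0.19. Its share of miRNAs with a smaller SD was 69.8%, against 27% for miR-15a and 31.7% for miR-15b.

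At the shared locus of miR-497 and miR-195, both members had small negative changes. miR-195 stood at -0.04, -0.07 and -0.22 in the cold mice and at -0.24, 0.17 and -0.05 at room temperature, with all cold values inside the range of the controls. Its change was -0.07 ± 0.15 (SE; 95% interval -0.41 to 0.27; limma adjusted p = 0.784). miR-497 stood at -0.98, -0.84 and -0.68 in the cold mice, and at -0.96, -0.58 and -0.67 in mice 4, 5 and 6. The ranges overlapped, and the change was -0.09 ± 0.15 (SE; 95% interval -0.45 to 0.26; limma adjusted p = 0.7). With 1 mouse left out, miR-497 lay between -0.20 (without mouse 4) and -0.013 (without mouse 5), and miR-195 between -0.17 (without mouse 4) and 0.038 (without mouse 5). The software's total signal per miRNA gave larger changes, -0.35 for miR-497 and -0.21 for miR-195 (limma adjusted p = 0.0933 and 0.237). Quantile normalisation gave smaller changes, -0.016 for miR-497 and -0.029 for miR-195.

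miR-322, from the X-linked cluster, gave 0.76, 0.94 and 1.01 in the cold mice and 0.71, 0.91 and 1.20 at room temperature. Its cold values lay within the range of the controls, and the change of -0.04 ± 0.16 was the smallest of the family (SE; 95% interval -0.41 to 0.34; limma adjusted p = 0.881). It was -0.15 without mouse 4 and 0.093 without mouse 6. In mouse 5 a single spot of its dimmer probe had 416589 units, where the other 9 spots averaged 1275. The scanner software marked it as an outlier and it was left out. Kept in, it would have raised the probe's mean in that mouse to 42806 units. In all, 30 of the 960 spots of the family over the 8 arrays were left out as outliers, between 2 of 160 for miR-15b and 8 of 160 for miR-16. They were not spread evenly over the arrays. In mouse 6 the brighter probe of miR-16 kept 6 of its 10 spots and the dimmer probe 7, the fewest of any probe of the family.

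**Figure D1:**
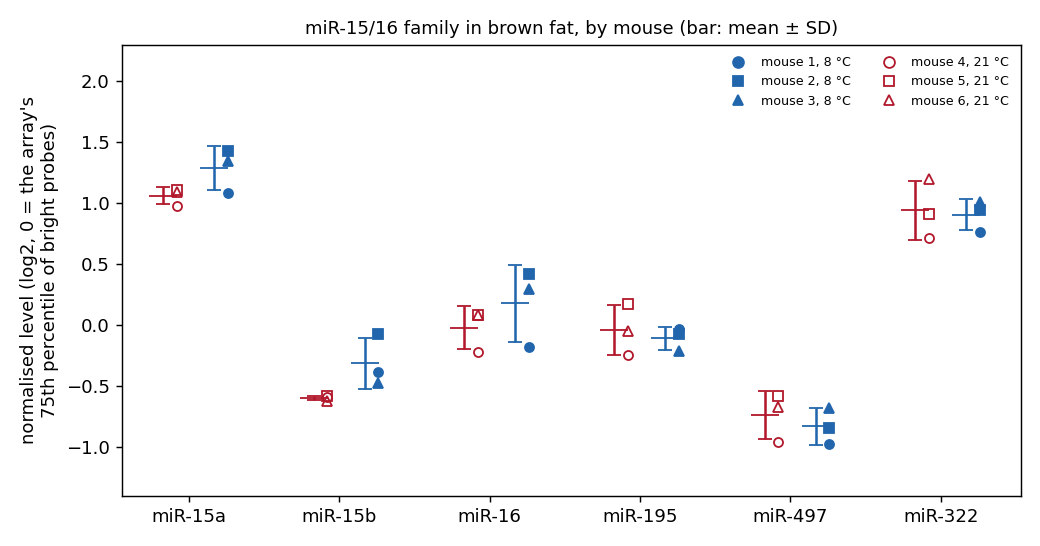
Normalised log2 level of each member by mouse, with filled symbols for the mice held at 8 °C and open symbols for those at 21 °C; bars give the mean ± SD of 3 mice. miR-15b is the 1 member whose groups do not overlap, and miR-322 and miR-195 have cold values inside the room temperature range.

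The signal itself was ample for all members. Unscaled, the cold means ran from 499.3 ± 121.6 units for miR-497 to 1991 ± 571 for miR-15a, and the room temperature means from 799 ± 188 units for miR-15b to 2286 ± 621 for miR-15a (SD, n = 3). At least 80% of the spots of each probe were well above background on every array, and no spot was saturated. Levels of different members come from different probes and were not ranked against each other. Scaling mattered for the direction: the 75th percentile that served as the scale ran from 574 to 918 units on the cold arrays and from 863 to 1408 on the room temperature arrays. With no scaling all 6 members were lower in the cold, with a median change of -0.36 where the median of all miRNAs was -0.46. With scaling to the dmr control RNAs all 6 were lower as well, with a median of -0.24. The median over all miRNAs was -0.16 there. The floor was set after scaling and fell at a higher signal there than in the main scaling. That median over all miRNAs thus mixes a change of scale with a change of floor. Whether the family fell more than the typical miRNA cannot be read from it. With all control RNAs the signs were as in the main scaling (median 0.05 beside -0.04). The positive sign of miR-15a, miR-15b and miR-16 thus turned with no scaling and with the dmr control RNAs, and held with all control RNAs. Measured from the median of all miRNAs, miR-15b was positive under all 19 alternatives, miR-15a was at -0.0048 with normexp background correction, and miR-16 was at -0.060 with the dimmer probe and at 0.0027 with normexp. With normexp the changes themselves were 0.20 for miR-15a and 0.21 for miR-16, close to the main fit. The median of all miRNAs was 0.21 there, against -0.02 in the main fit. Apart from the floor, a change measured from that median cancels a scaling by 1 factor per array. miR-15b thus stood at 0.31 both with no scaling and with the percentile over all probes, and the 19 alternatives are not 19 separate checks.

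Arrays of the same mouse gave a measure of technical error. The second array of mouse 1 differed from the first by 0.33 for miR-15b, 0.38 for miR-16, 0.23 for miR-195 and 0.27 for miR-497, which is of the size of the changes described above. For miR-15a and miR-322 it differed by 0.02 and -0.10, and the median absolute difference over all miRNAs was 0.20. In mouse 4 the 6 differences lay between -0.06 and 0.10.

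**Figure D2:**
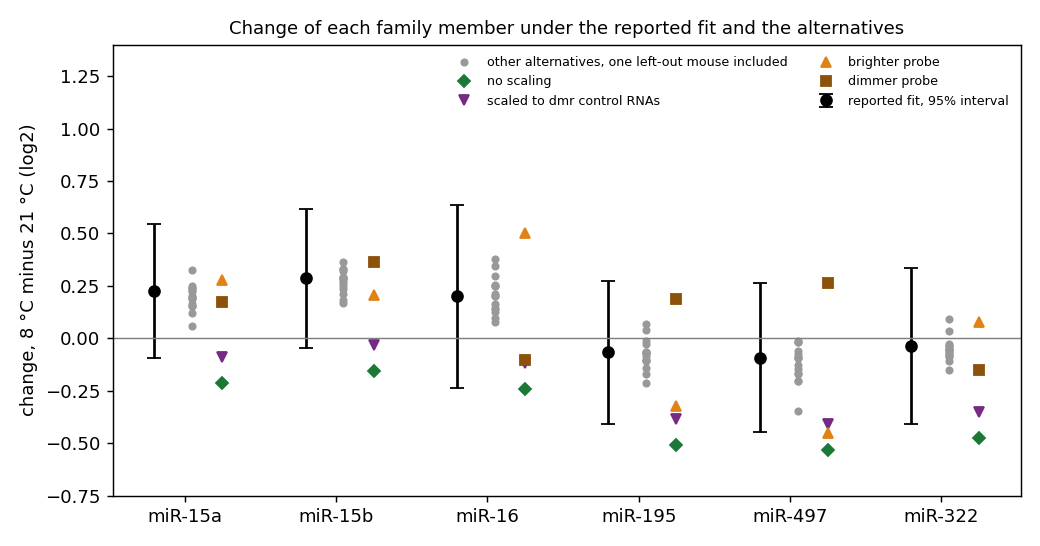
Change of each member (8 °C minus 21 °C, log2) in the reported fit with its 95% interval (black), with no scaling, with scaling to the dmr control RNAs, with the brighter or the dimmer probe alone (coloured symbols), and under the other alternatives (grey, with those that leave out 1 mouse). All 6 intervals include 0, and for miR-16, miR-195, miR-497 and miR-322 the brighter and the dimmer probe lie on opposite sides of 0.

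The loci were then compared in their change. For each mouse the level of one locus was subtracted from that of another, which cancels any scaling by 1 factor per array, and the differences were compared between the groups by an exact permutation test over the mice (2-sided; the smallest p that 3 mice against 3 allow is 0.1), with adjustment over the 9 pairs. The level of the miR-195/miR-497 locus was the mean of both its members. None of the 9 pairs can reach the threshold in this design, and the adjusted p ran from 0.45 to 0.9.

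Relative to both other loci, miR-15a and miR-15b had higher mean values in the cold. miR-15a minus miR-195/miR-497 came to 1.59, 1.88 and 1.80 in cold mice, against 1.58, 1.31 and 1.45 in the controls. All cold mice lay above all controls, though mouse 1 and mouse 4 nearly met. The difference between groups was 0.31 ± 0.12 (SE, n = 3 mice per group; exact permutation test, p = 0.1). Against miR-322, miR-15a gave 0.32, 0.48 and 0.34 in the cold and 0.27, 0.20 and -0.11 at room temperature, again without overlap and with a difference of 0.26 ± 0.13 (SE, n = 3; exact permutation test, p = 0.1). These were 2 of the 9 pairs. How often pairs of other miRNAs separate the groups was not computed, and single miRNAs did so in 73 of 189 cases (38.6%). miR-15b differed by 0.37 ± 0.17 from miR-195/miR-497 and by 0.32 ± 0.20 from miR-322, with overlapping mice in both (SE, n = 3; exact permutation test, p = 0.2 each).

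The other pairs differed less. miR-15a minus miR-15b differed between the groups by -0.06 ± 0.12, and miR-195/miR-497 minus miR-322 by -0.04 ± 0.14 (SE, n = 3; exact permutation test, p = 0.8 and 0.9). Inside 1 locus, miR-195 minus miR-497 differed by 0.03 ± 0.15 (SE, n = 3; exact permutation test, p = 0.8). Set against miR-16, miR-15a differed by 0.03 ± 0.10 and miR-15b by 0.09 ± 0.19 (SE, n = 3; exact permutation test, p = 0.7 each). These 5 differences were smaller than their SE, which does not show that the loci changed alike.

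**Figure D3:**
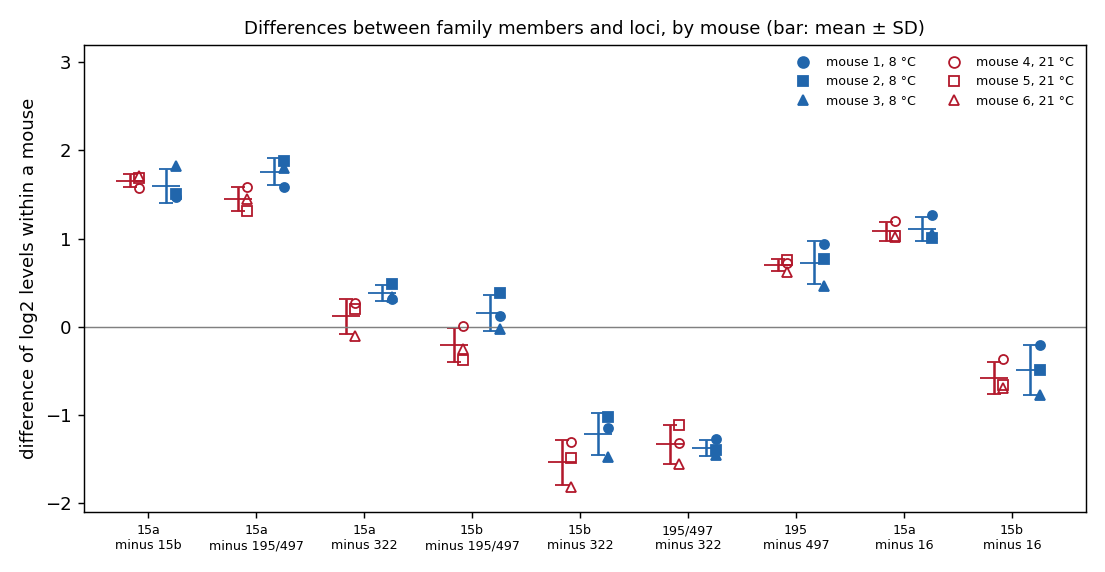
Differences of normalised log2 levels within a mouse for 9 pairs of family members or loci (miR-195/miR-497 is the mean of both), by mouse, with bars for the mean ± SD of 3 mice per group. The height of a pair reflects its probes and has no meaning of its own. The gap between blue and red is what is compared, and it is open without overlap for miR-15a minus miR-195/miR-497 and miR-15a minus miR-322. The share of other miRNA pairs without overlap was not computed.

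The difference between miR-15a and the miR-195/miR-497 locus depended on which probe was read. With the brighter probe of each miRNA it was 0.66, and with the dimmer probe, an alternative chosen after seeing the data, it was -0.05. miR-15b minus miR-195/miR-497 stood at 0.59 with the brighter and at 0.14 with the dimmer probe. The differences of miR-15a and of miR-15b from miR-322 kept their sign with either probe and under all 15 alternatives that apply, at 0.12 to 0.34 and 0.13 to 0.52. Among these 15, the changes of the filter on dim probes could not alter them.

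In 4 of the 6 members the probes of the same miRNA had changes of opposite sign, as they did in 53 of the 125 miRNAs with several probes (42.4%). For miR-497 the brighter probe changed by -0.45 and the dimmer by 0.26. For miR-195 the changes were -0.32 and 0.19, for miR-16 0.50 and -0.10, and for miR-322 0.08 and -0.15. Only miR-15a (0.28 and 0.17) and miR-15b (0.21 and 0.37) had probes of one sign. Taken singly, 2 probes separated the groups with cold higher (the brighter of miR-16 and the dimmer of miR-15b), and 2 with cold lower (the brighter of miR-195 and of miR-497). These 4 of 12 compare with 147 of the 329 probes that passed the filter (44.7%), of which 82 were higher in the cold (24.9%) and 65 lower (19.8%). Read by its brighter probe alone, no member passed either, while 36 of 189 miRNAs did (19%). At an unadjusted p under 0.05 from limma, 2 of the 6 members (miR-16 and miR-497) were called there, against 66 of 189 miRNAs (34.9%). The adjusted p from limma was then 0.0868 for miR-497, 0.114 for miR-16 and 0.148 for miR-195.

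The gap between both probes of a miRNA, brighter minus dimmer within a mouse, also does not depend on the scaling. This comparison was chosen after the values were seen. The gap of miR-497 took the values 1.56, 1.28 and 1.07 in cold mice, against 1.90, 2.06 and 2.09 at room temperature, so that the probes stood closer together in all cold mice. For miR-195 it was 0.64, 0.47 and 0.71 in the cold against 1.18, 1.04 and 1.14. In miR-16 the gap was wider in the cold, at 2.04, 2.27 and 2.01 against 1.68, 1.38 and 1.43, and in miR-322 slightly so, at 0.93, 0.75 and 0.73 against 0.66, 0.70 and 0.37. These 4 gaps did not overlap between the groups (exact permutation test, 2-sided, p = 0.1 each, n = 3; adjusted p = 0.15 over the 6 members), and those of miR-15a and miR-15b did (p = 0.5 and 0.4 by the same permutation test). Gaps without overlap were common on these arrays: 51 of the 115 miRNAs with 2 measured probes had one (44.3%). Of all 115, whether overlapping or not, 20 had a gap that differed more than that of miR-497. The median difference between probes in their change was 0.37 in the family and 0.38 over the 125 miRNAs with several probes. An SE over mice does not include the distance between probes.

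**Figure D4:**
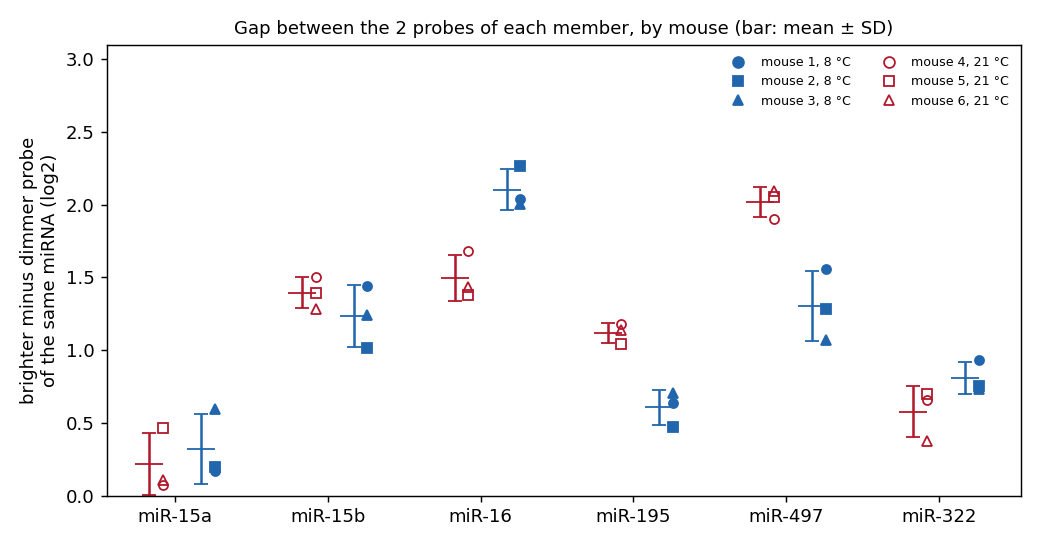
Gap between the brighter and the dimmer probe of each member (log2), by mouse, with bars for the mean ± SD of 3 mice per group. The gap is narrower in all cold mice for miR-195 and miR-497, wider for miR-16 and miR-322, and overlaps between groups for miR-15a and miR-15b.

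The passenger strands and cluster neighbours of the family were nearly all dim. Of 17 names listed, 13 were on the array, 2 had a probe that passed the filter on dim probes, and 7 were not well above background on any array. The strands miR-15a*, miR-15b*, miR-16* and miR-503* were among these 7, with group means between -1.64 and 1.45 units, while no family member had a group mean under 499.3 units. miR-503, encoded 200 bases from miR-322 and with a seed that differs from the family's in its last base, was well above background on 0 cold and 2 room temperature arrays. In units, the cold mice gave 1.97, 5.77 and 3.55, and the room temperature mice 4.83, 7.50 and 15.7. It was not tested. Its sequence is given for the comparison with miR-322 above (RefSeq, GRCm38.p6; seed in capitals):
mmu-miR-503: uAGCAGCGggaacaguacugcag

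Both tested strands of miR-542, which is named in the list as a neighbour of miR-322, stood on either side of 0. miR-542-3p differed by -0.20 ± 0.15 and miR-542-5p by 0.21 ± 0.13 (SE, n = 3; limma adjusted p = 0.379 and 0.312). The first passed the filter through the room temperature arrays alone, being well above background on 0 cold and 4 room temperature arrays, so that it could pass only by being brighter there.

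miR-103 and miR-107 carry the family's seed letters one base earlier, from base 1, so that their own seed is shifted. Capitals again mark bases 2 to 8 (RefSeq, GRCm38.p6):
mmu-miR-103: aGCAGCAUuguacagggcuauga
mmu-miR-107: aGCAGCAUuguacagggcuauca

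Their changes stood beside those of miR-15a and miR-15b, at 0.27 ± 0.13 for miR-103 and 0.30 ± 0.14 for miR-107 (SE, n = 3; limma adjusted p = 0.198 and 0.19). The cold mice lay above the controls without overlap for miR-103, and the groups overlapped for miR-107.

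Profiles over the 6 mice were compared by the root mean square distance between centred log2 levels, as a description over arrays that share 1 slide and 1 scaling. For miR-16 the nearest of all measured miRNAs was miR-15a, at 0.10 where the median miRNA lay at 0.29. The other members had their nearest profile outside the family. It was miR-99b for miR-15a (0.07), miR-140* for miR-15b (0.07), miR-350 for miR-195 (0.05), miR-10a for miR-497 (0.06) and miR-18a for miR-322 (0.06). miR-497 came second for miR-322, at 0.12, ahead of miR-126-3p. Next in order for miR-15a were miR-20b and miR-140, for miR-15b miR-182 and miR-652, and for miR-16 miR-27b and miR-99b. For miR-195 they were miR-130a and miR-299*, and for miR-497 miR-150 and miR-542-3p. Within the family the closest pair was miR-15a with miR-16 and the farthest miR-15b with miR-497, at 0.28. The partners miR-195 and miR-497 lay 0.15 apart.

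Markers of the tissue and of other cells were read beside these values. The brown fat miRNAs miR-193b, miR-365, miR-378 and miR-455 were well above background in both groups, with summed signals of 6408 to 11335 units in the cold and 7794 to 13478 at room temperature. Of these 4, miR-193b and miR-378 rose, by 0.64 and 0.97 (limma adjusted p = 0.0129 and 0.0219). The groups overlapped for miR-365 and miR-455, with changes of -0.07 and 0.13 (limma adjusted p = 0.84 and 0.741). The erythroid miRNAs miR-451, miR-144 and miR-486 had sums of 11159 to 23968 and 11000 to 22202 units, and changes from 0.46 to 0.83, of which none passed. After scaling, all cold mice lay above the controls for miR-451 and miR-144 (limma adjusted p = 0.058 and 0.0525). For miR-486 the groups overlapped. The striated muscle miRNAs (miR-1, miR-133a, miR-133b, miR-206, miR-208b and miR-499) summed to 1947 to 6664 units in the cold and 10508 to 24322 at room temperature, without overlap. Of these 6, 3 fell, and miR-208b and miR-499 were not well above background on any cold array. The remaining muscle miRNA, miR-1, changed by -1.73 with all cold mice below the controls and did not pass (limma adjusted p = 0.0549). The 7 leukocyte miRNAs also did not overlap in unscaled sums, with 521 to 1108 and 1261 to 1924 units, and 0 of the 7 passed. All sums given here are unscaled, and the cold arrays were dimmer as a whole. After scaling, the leukocyte changes ran from -0.55 to -0.02, and only for miR-342-3p did the groups not overlap. The 5 stromal miRNAs summed to 645 to 793 and 1226 to 1862 units, with 3 that fell and miR-145 not well above background in either group. The remaining stromal miRNA, miR-199a-5p, had a positive change of 0.68, with all cold mice above the controls and an adjusted p of 0.169 from limma. The endothelial arms of miR-126 summed to 7476 to 12482 and 11310 to 18880 units. The liver miRNA miR-122 reached at most 1.82 units in the cold and 10.9 to 259 units at room temperature. No listed marker had a group mean at or below 0. The part of these cell types in the levels of the miR-15/16 family was not tested.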

How the data were processed

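The authors deposited 1 scanner file per array with intensity values per spot, background-subtracted and linear, not normalised between arrays. The extraction software was Agilent's, in version 10.7.3.1 per the file headers and 9.5.3.1 per the submitters' processing notes. The deposited value table held the same intensities (largest difference 0). The software's deposited flags per spot, a category of other values, gave outliers and probes well above background.

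Control and outlier spots were left out, and the spots of a probe averaged. As the scale of an array, the 75th percentile of 267 probes (those well above background on every array) was used; scaled values had a floor of 0.01 before log2. Probes with over 0.5 of their spots well above background on every array of 1 group were kept, and averaged per miRNA and then per mouse. Groups were compared with limma 3.58.1 in R 4.3.3 (lmFit, eBayes, Benjamini-Hochberg over 189 miRNAs, threshold 0.05), which was tested on simulated data. The replicates are mice, and 3 per group limit the precision. The members, lists and tests were chosen with earlier results of these data known. Named miRNAs were the members, listed strands, neighbours and markers, and the 3 nearest profiles of each member. Alternatives covered scaling, background (normexp, offset 50, on median spot signals), probe and spot summaries, filters, second arrays and each mouse left out, with the probe set kept. Scaling to the dmr controls and the dimmer probe were added after seeing the data.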

Additional observations from a re-analysis of the deposited data

How the results depend on the processing

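Of 114 results for the 6 members over 19 alternatives, 0 passed limma's adjusted threshold, 100 kept their sign and 14 turned. The signs under both changes of the filter could not turn, since every probe of the family was kept under either filter. The count of 29 miRNAs past the threshold became 45 with quantile normalisation, 11 with no scaling, 13 with scaling to all control RNAs, 4 with the dmr control RNAs, 6 with normexp, 5 with no filter on dim probes, 16 with only probes well above background on all arrays and 47 with the dimmer probe, and 8 to 33 with 1 mouse left out. The floor of 0.01 followed each scaling and fell at a different signal in units. The counts under the scalings therefore mix a change of scale with a change of floor. With no scaling the changes of miR-15a, miR-15b and miR-16 were -0.21, -0.15 and -0.24, and with the dmr control RNAs -0.091, -0.032 and -0.12. The dimmer probe gave -0.10 for miR-16, 0.19 for miR-195 and 0.26 for miR-497, the brighter probe 0.079 for miR-322, and the median of spots 0.067 for miR-195. With 1 mouse left out, miR-15a lay between 0.16 and 0.33, miR-15b between 0.17 and 0.37, miR-16 between 0.080 and 0.38, miR-195 between -0.17 and 0.038, miR-322 between -0.15 and 0.093 and miR-497 between -0.20 and -0.013.

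Of 135 locus results, 23 turned in sign, and those under both changes of the filter could not turn. Quantile normalisation gave 0.062 for miR-195/miR-497 minus miR-322, -0.013 for miR-195 minus miR-497 and -0.13 for miR-15a minus miR-16, and normexp -0.0075 for the last. The brighter probe gave 0.073 for miR-15a minus miR-15b, -0.23 for miR-15a minus miR-16 and -0.30 for miR-15b minus miR-16; the total signal gave -0.13 and -0.11 for the latter pairs, and the median of spots -0.29 and -0.017. The first arrays alone gave 0.0036 for miR-15a minus miR-15b. The dimmer probe gave -0.052 for miR-15a minus miR-195/miR-497, 0.38 for miR-195/miR-497 minus miR-322 and -0.076 for miR-195 minus miR-497. With 1 mouse left out, miR-15a minus miR-15b ran from -0.17 to 0.0048, miR-195/miR-497 minus miR-322 from -0.16 to 0.062, miR-195 minus miR-497 from -0.084 to 0.16, miR-15a minus miR-16 from -0.051 to 0.088 and miR-15b minus miR-16 from -0.056 to 0.23. The cause of these shifts was not tested. No paired analysis was possible because the groups share no mouse number.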
